A study of Mus musculus with 38 samples.

Results

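The 8 genes described here take part in cholesterol synthesis and its control in the left ventricle of mice modelling HFpEF, the form of heart failure in which ejection fraction is preserved. They were Srebf2, Insig1, Hmgcs1, Idi1, Fdft1, Sqle, Lss and Cyp51, each taken by its gene symbol from the 29564 genes that the deposited tables list. Of the 8 genes, 7 had reads in all 38 libraries and passed the filter on low counts, which left 13765 genes for testing. Fdft1, which encodes squalene synthase, was listed at 0 in all 38 libraries, as was, in all but 1 library, Pggt1b, the gene of a prenyltransferase subunit. The cause of these zeros was not tested, and Fdft1 has no value below.

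SREBP2, the protein made from Srebf2, is a transcription factor that is kept in the endoplasmic reticulum membrane by Scap and the INSIG proteins while sterols are plentiful. When sterols fall, it is carried to the Golgi and cleaved, and its released part enters the nucleus and switches on genes of cholesterol synthesis, of lipoprotein uptake and Srebf2 itself. Insig1 is both a brake on this system and one of its targets, so its RNA is commonly read together with that of the enzymes. The liver is a main site of cholesterol synthesis in the body.

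The study asked how long-term inhibition of HDAC6 compares with inhibition of the renal glucose transporter SGLT2 in HFpEF mice. All mice were wild type C57BL6. The non_failing group (8 mice) received vehicle, and the 3 HFpEF groups, made with a high-fat diet and the nitric oxide synthase inhibitor L-NAME, received vehicle (HFpEF+Veh, 8 mice), TYA-018, which inhibits HDAC6 (HFpEF+TYA-018, 11 mice), or empagliflozin, which inhibits SGLT2 (HFpEF+SGLT2i, 11 mice). The compounds were given by mouth, and an age for each mouse was not given in the labels.

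Libraries held about 21451600 to 59280400 counts, with overlapping ranges in the 4 groups. The labels call the mice female while the study's methods name males, and 4 genes of the Y chromosome were expressed in all 38 libraries. Of these, Ddx3y was called lower against the non_failing group with TYA-018 (-0.41) and empagliflozin (-0.39), and Uty with empagliflozin (-0.35, and no longer called, at -0.36 with an edgeR adjusted p of 0.0651, without the 4 libraries described next). Genes of cardiomyocytes were high throughout, the 8 examined adding up to between 23960 and 47352 counts per 1000000 (CPM), and genes typical of atrial cardiomyocytes added up to at most 246 CPM. Transcripts of hepatocytes were not evenly spread. The summed level of 12 hepatocyte genes (albumin, apolipoproteins, fibrinogen and others) was 2313 CPM in 1 HFpEF+Veh library, V2523, and 3.54 to 47.9 CPM in the other 7. It was 35.0 to 500 CPM in the non_failing group, above 200 CPM in 3 libraries (V2501, V2503 and V2504), 2.10 to 5.47 CPM with TYA-018 and 2.54 to 18.6 CPM with empagliflozin. Each result below was therefore also computed without V2523 and, against the non_failing group, without all 4 libraries above 200 CPM. In bulk tissue, fewer cells of a type and less RNA per cell cannot be told apart.

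The promoters of 6 of the 8 genes had an entry in the RefSeq table (mouse, GRCm38.p6), and Sqle and Fdft1 had none. The 250 bases before the RefSeq start are printed for Srebf2, Idi1, Hmgcs1 and Cyp51. Srebf2 was called lower than in the non_failing group in the main test below. Idi1 was called lower there only in some alternative fits, such as that without V2523. The levels of Hmgcs1 and Cyp51 followed those of Idi1 from mouse to mouse. Capitals mark the sterol regulatory element letters TCACNCCAC and the NF-Y letters CCAAT, both searched on both strands, so that ATTGG is CCAAT on the other strand. The windows are chr15:82147019-82147268 (plus strand) for Srebf2, chr13:119690101-119690350 (plus strand) for Hmgcs1, chr13:8885356-8885605 (plus strand) for Idi1 and chr5:4104698-4104947 (minus strand) for Cyp51. The RefSeq starts differ from the GENCODE gene bounds given with each gene.
Srebf2: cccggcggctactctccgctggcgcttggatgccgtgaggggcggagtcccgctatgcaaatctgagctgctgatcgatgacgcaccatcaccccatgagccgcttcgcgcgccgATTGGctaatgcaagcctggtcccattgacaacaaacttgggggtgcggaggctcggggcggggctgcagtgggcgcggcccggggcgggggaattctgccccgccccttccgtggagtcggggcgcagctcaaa
Hmgcs1: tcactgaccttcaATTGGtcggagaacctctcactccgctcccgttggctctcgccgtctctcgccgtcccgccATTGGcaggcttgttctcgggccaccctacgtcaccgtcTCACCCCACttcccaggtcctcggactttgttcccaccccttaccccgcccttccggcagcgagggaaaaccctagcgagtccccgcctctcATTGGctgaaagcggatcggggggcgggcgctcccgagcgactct
Idi1: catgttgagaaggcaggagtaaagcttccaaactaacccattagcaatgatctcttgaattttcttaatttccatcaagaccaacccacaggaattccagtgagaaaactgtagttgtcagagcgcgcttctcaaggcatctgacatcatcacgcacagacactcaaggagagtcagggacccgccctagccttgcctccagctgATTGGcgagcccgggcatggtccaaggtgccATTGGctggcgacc
Cyp51: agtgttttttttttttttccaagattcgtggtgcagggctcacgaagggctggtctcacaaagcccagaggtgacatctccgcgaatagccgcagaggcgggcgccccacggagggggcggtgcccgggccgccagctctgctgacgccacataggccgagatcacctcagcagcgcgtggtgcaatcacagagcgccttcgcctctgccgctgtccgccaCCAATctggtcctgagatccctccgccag
The letters TCACNCCAC were found in 1 of the 6 promoters, that of Hmgcs1, starting 137 bases before the start site, against 1.24% of 32841 RefSeq promoters of the same 300-base length. A shorter search with TCACNCCA, made after the sequences had been seen, also met the Srebf2 promoter at 162 bases before its start, against 4.36% of all promoters. CCAAT stood in 6 of the 6 promoters, 3 times before the start of Hmgcs1 and 2 times in that of Idi1, against 37.4% of all. The GC box GGGCGG stood in 6 of 6 against 35.7% of all, and the E-box CANNTG in 5 of 6 against 72.3%. Over the 300 bases, G and C made up 52.3% for Idi1 and 64.7% to 71.7% for the other promoters, against a median of 52.7% for all. The shares were not adjusted for this difference. TCACNCCA is part of TCACNCCAC, and in Hmgcs1 the E-box shares bases with a CCAAT match. These are matches of letters only.

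Srebf2 RNA was lower in all 3 HFpEF groups than in non_failing hearts. Srebf2 lies at chr15:82147181-82205379 on the plus strand (GRCm38). Its level, in transcripts per 1000000 (TPM, which corrects for transcript length), was 3.13 to 4.63 in the non_failing group with a median of 3.75, and 2.69 to 4.31 in HFpEF+Veh with a median of 3.24. With TYA-018 it was 2.27 to 3.36 with a median of 2.55, and with empagliflozin 2.54 to 3.60 with a median of 2.78. The ranges overlapped, but 10 of 11 TYA-018 libraries and 9 of 11 empagliflozin libraries lay below the lowest non_failing library, against 3 of 8 vehicle libraries. The exceptions were V2543 with TYA-018, and V2572 and V2575 with empagliflozin. The mean was 3.77 ± 0.542 TPM (SD, n = 8) in the non_failing mice, 3.30 ± 0.522 (SD, n = 8) with vehicle, 2.66 ± 0.320 (SD, n = 11) with TYA-018 and 2.88 ± 0.313 (SD, n = 11) with empagliflozin.

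**Figure D1:**
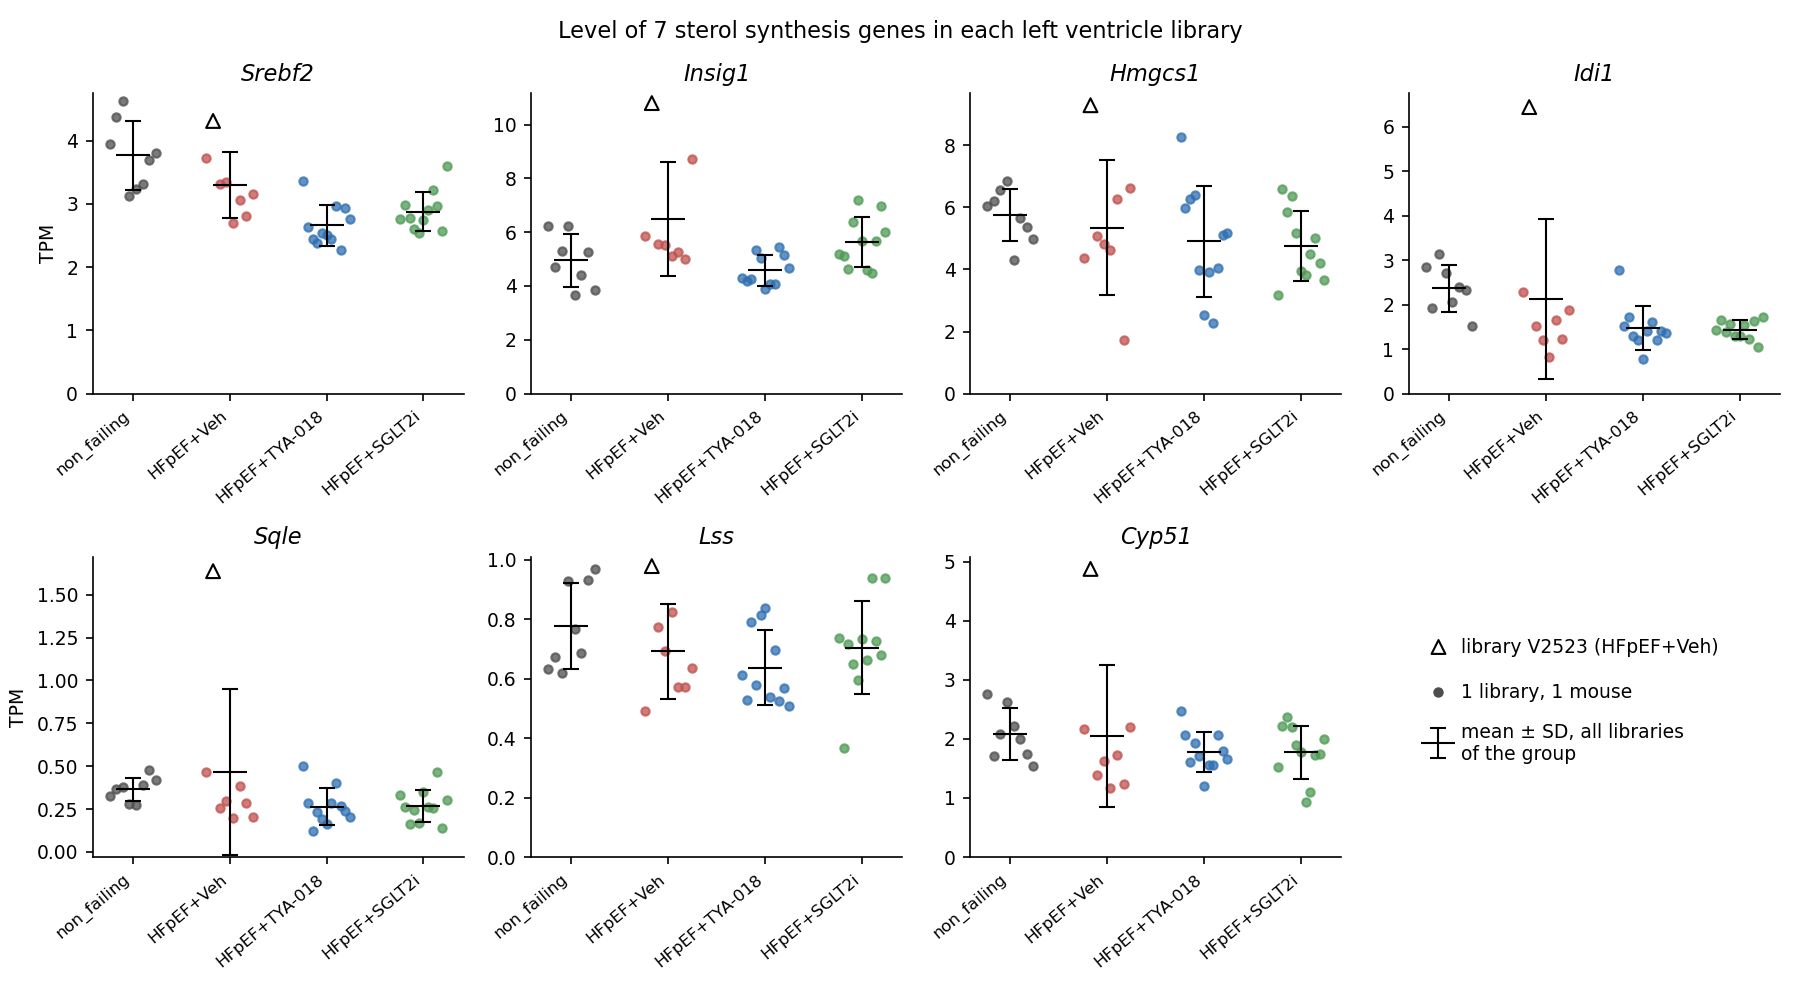
Level in TPM of the 7 detected genes in each of the 38 libraries, by group, with the mean and SD. V2523 is the highest HFpEF+Veh library in every panel, at 6.44 TPM for Idi1, and most drug-treated libraries lie below the non_failing libraries for Srebf2.

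In edgeR's quasi-likelihood test across all genes, Srebf2 fell by 0.46 on the log2 scale with TYA-018 against non_failing (SE 0.07, adjusted p = 5.96e-05, lower in 11 of 11 libraries than the non_failing mean). With empagliflozin it fell by 0.40 (SE 0.07, edgeR adjusted p = 0.000416, 11 of 11 libraries). In HFpEF+Veh it fell by 0.28 (SE 0.08, edgeR adjusted p = 0.0377, 7 of 8 libraries). Srebf2 was thus 1 of 7 tested genes called in each of these comparisons, where a call is an adjusted p under 0.05. The share called among all genes was 7.39% with TYA-018, 6.45% with empagliflozin and 3.15% with vehicle, and the share called lower was 3.39%, 2.99% and 1.38%.

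The decrease in the drug-treated groups did not rest on any 1 library. Srebf2 stayed called in each of the 38 fits that left out 1 library, at log2 changes between -0.50 and -0.43 with TYA-018 and between -0.44 and -0.37 with empagliflozin. It was as large without the 4 libraries rich in hepatocyte transcripts, at -0.45 (edgeR adjusted p = 0.000176) and -0.39 (edgeR adjusted p = 0.00126). In HFpEF+Veh the change was -0.34 without V2523 (edgeR adjusted p = 0.00709) and -0.32 without the 4 libraries (edgeR adjusted p = 0.0395). That call was lost when any of V2501, V2502, V2503, V2527, V2528, V2529 or V2530 was left out, with log2 changes between -0.28 and -0.25 and edgeR adjusted p between 0.0675 and 0.100. It was also lost with scaling by library size alone, at -0.21 (edgeR adjusted p = 0.210), without the filter on low counts, at -0.28 (edgeR adjusted p = 0.0528), with the 2 groups fitted alone, at -0.29 (edgeR adjusted p = 0.0910), and with limma on log2(TPM + 1), at -0.17 (adjusted p = 0.281).

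Between the HFpEF groups the levels of Srebf2 followed the order HFpEF+Veh, HFpEF+SGLT2i and HFpEF+TYA-018 without neighbours passing the test. TYA-018 against vehicle gave -0.18 (SE 0.07, edgeR adjusted p = 0.179) and -0.13 without V2523 (edgeR adjusted p = 0.331). Empagliflozin against vehicle gave -0.12 (SE 0.07, edgeR adjusted p = 0.612), and TYA-018 against empagliflozin gave -0.06 with a 95% interval from -0.20 to 0.07.

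Insig1, the sterol-sensing brake, did not follow Srebf2. Insig1 lies at chr5:28071363-28078662 on the plus strand. Its level was 3.67 to 6.24 TPM in non_failing (median 4.99) and 5.01 to 10.8 TPM in HFpEF+Veh (median 5.53). It was 3.88 to 5.45 TPM with TYA-018 (median 4.28) and 4.49 to 7.18 TPM with empagliflozin (median 5.65). None of the 30 HFpEF libraries fell below the lowest non_failing library, and 2 vehicle libraries (V2523 and V2532) and 3 empagliflozin libraries lay above the highest. The log2 change was 0.29 in HFpEF+Veh against non_failing (SE 0.13, edgeR adjusted p = 0.268), or 0.16 without V2523, -0.05 with TYA-018 and 0.18 with empagliflozin, none of them called. The non_failing libraries with the most Insig1, V2504 at 6.24, V2501 at 6.23 and V2503 at 5.29 TPM, were those with hepatocyte sums above 200 CPM. Without the 4 libraries rich in hepatocyte transcripts, Insig1 stood at 0.32 with vehicle, 0.10 with TYA-018 and 0.33 with empagliflozin. None of these was called, and the lowest edgeR adjusted p was 0.113. Against vehicle, all 11 TYA-018 libraries lay below the vehicle mean, at -0.34 (SE 0.12, edgeR adjusted p = 0.129), or -0.21 without V2523 (edgeR adjusted p = 0.310). The difference between TYA-018 and empagliflozin was -0.23 (95% interval -0.46 to 0.0048, edgeR adjusted p = 0.391). Scaling by library size alone, which moved the median of all genes by -0.13 in TYA-018 against vehicle, called both Insig1 and Srebf2 lower there.

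Hmgcs1 encodes the cytosolic synthase that makes HMG-CoA for the mevalonate pathway and lies at chr13:119690379-119708260 on the plus strand. It varied more from mouse to mouse than Srebf2 or Insig1 in each HFpEF group, with a coefficient of variation of 40.6% with vehicle, 36.5% with TYA-018 and 23.9% with empagliflozin, against 14.7% in non_failing. Its level was 4.32 to 6.87 TPM in non_failing (median 5.85), 1.72 to 9.30 TPM in HFpEF+Veh (median 4.94), 2.26 to 8.27 TPM with TYA-018 (median 5.10) and 3.19 to 6.59 TPM with empagliflozin (median 4.48). The groups overlapped widely, with 1 vehicle, 5 TYA-018 and 5 empagliflozin libraries below the lowest non_failing library. The log2 change against non_failing was -0.19 with vehicle (SE 0.21), -0.22 with TYA-018 (SE 0.20) and -0.30 with empagliflozin (SE 0.20), and the lowest edgeR adjusted p of these was 0.416. The value for vehicle hung on single libraries, at -0.32 without V2523 and -0.059 without V2530.

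Idi1 encodes the isomerase that turns isopentenyl diphosphate into dimethylallyl diphosphate, the primer of sterol and isoprenoid chains. It lies at chr13:8885501-8892451 on the plus strand. The non_failing libraries ranged from 1.52 to 3.13 TPM with a median of 2.36, and HFpEF+Veh from 0.830 to 2.28 TPM in 7 libraries with V2523 apart at 6.44. With TYA-018 the range was 0.768 to 2.77 TPM with a median of 1.40, and with empagliflozin 1.04 to 1.73 TPM with a median of 1.44. Below the lowest non_failing library were 3 of 8 vehicle, 8 of 11 TYA-018 and 6 of 11 empagliflozin libraries.

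With all libraries, Idi1 missed the threshold in each comparison with non_failing, at -0.71 with TYA-018 (SE 0.23, edgeR adjusted p = 0.0532, 10 of 11 lower), -0.72 with empagliflozin (SE 0.23, edgeR adjusted p = 0.0511, 11 of 11 lower) and -0.26 with vehicle (SE 0.25, edgeR adjusted p = 0.661, 7 of 8 lower). Without V2523 all 3 HFpEF groups were called lower at nearly the same size, -0.70 with vehicle (SE 0.19, edgeR adjusted p = 0.0208), -0.70 with TYA-018 (SE 0.16, edgeR adjusted p = 0.00503) and -0.72 with empagliflozin (SE 0.16, edgeR adjusted p = 0.00385). Together with Srebf2 that made 2 of 7 genes called lower in each, where 2.46%, 3.85% and 3.39% of 13801 genes were.

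Hepatocyte transcripts and Idi1 were high in the same libraries of the non_failing group. The 3 non_failing libraries with the most Idi1, V2503 at 3.13, V2501 at 2.85 and V2504 at 2.72 TPM, were the 3 with hepatocyte sums above 200 CPM, and V2510, with the lowest sum at 35.0 CPM, had the lowest Idi1 at 1.52 TPM. Among the 7 vehicle libraries other than V2523 the order was mixed. V2521, with the lowest sum at 3.54 CPM, had the most Idi1 at 2.28 TPM, and V2528, at 24.4 CPM, had the least at 0.830 TPM. V2532, with the highest sum of the 7 at 47.9 CPM, came next to V2521 at 1.88 TPM. The part of hepatocyte transcripts in the level of Idi1 was not tested. Without the 3 non_failing libraries above 200 CPM and V2523, Idi1 was no longer called, at -0.52 with vehicle (edgeR adjusted p = 0.258), -0.52 with TYA-018 (edgeR adjusted p = 0.0878) and -0.53 with empagliflozin (edgeR adjusted p = 0.0917). The direction was kept and the size was smaller. The remaining 5 non_failing libraries still had hepatocyte sums of 35.0 to 117 CPM, above all TYA-018 and empagliflozin libraries.

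**Figure D2:**
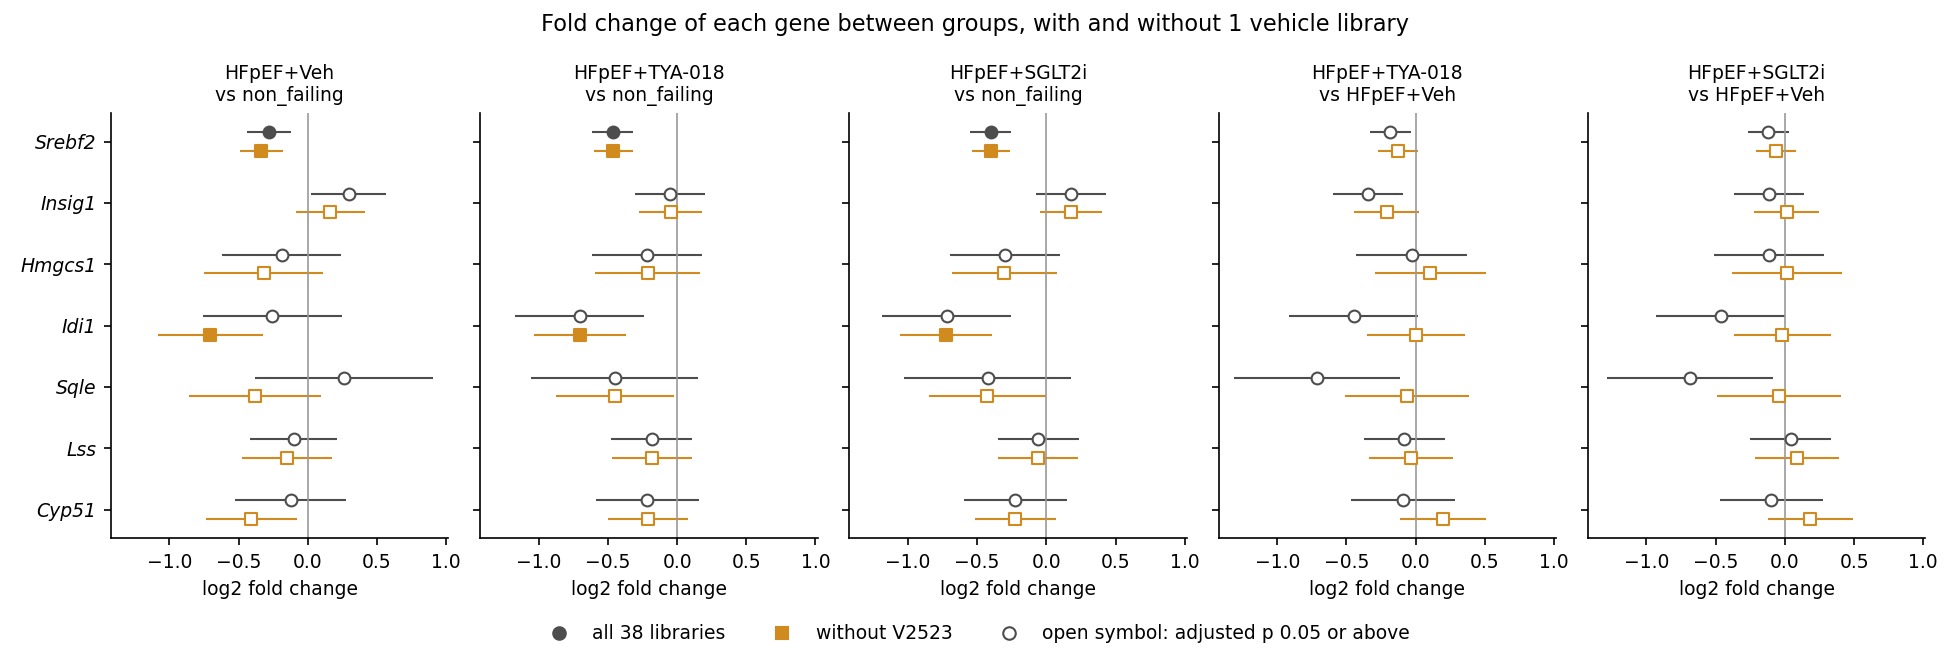
Log2 fold change of each gene with its 95% interval in the 5 comparisons with non_failing or vehicle, with all 38 libraries and without V2523. Without V2523, Idi1 moves from -0.26 to -0.70 in HFpEF+Veh against non_failing and from -0.45 to 0.0013 in TYA-018 against vehicle, while Srebf2 moves little.

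Sqle, the squalene epoxidase that prepares squalene for ring closure, lies at chr15:59315077-59331192 on the plus strand and was the least abundant of the 7 genes, with 10 to 162 counts in a library. It ranged from 0.276 to 0.479 TPM in non_failing, 0.199 to 0.464 TPM in 7 vehicle libraries with V2523 at 1.64, 0.123 to 0.501 TPM with TYA-018 and 0.141 to 0.469 TPM with empagliflozin. In both drug groups 7 of 11 libraries lay below the lowest non_failing library. The log2 change against non_failing was -0.45 with TYA-018 (SE 0.30, edgeR adjusted p = 0.399) and -0.42 with empagliflozin (SE 0.30, edgeR adjusted p = 0.460). For HFpEF+Veh the sign turned with V2523, from 0.26 with it (edgeR adjusted p = 0.735) to -0.38 without it (edgeR adjusted p = 0.385).

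Lss, the lanosterol synthase, lies at chr10:76531588-76557138 on the plus strand. Its level was below the lowest non_failing library in 3 of 8 vehicle, 7 of 11 TYA-018 and 2 of 11 empagliflozin libraries, but no change passed the test. Its mean was 0.777 ± 0.146 TPM (SD, n = 8) in the non_failing mice, 0.693 ± 0.160 (SD, n = 8) with vehicle, 0.637 ± 0.126 (SD, n = 11) with TYA-018 and 0.704 ± 0.156 (SD, n = 11) with empagliflozin. Its log2 changes against non_failing lay between -0.18 and -0.06 with SE of 0.14 to 0.16, and the lowest edgeR adjusted p of these was 0.492. Cyp51, the demethylase that acts on lanosterol, lies at chr5:4081145-4104746 on the minus strand. It ranged from 1.54 to 2.76 TPM in non_failing, 1.17 to 2.20 TPM in 7 vehicle libraries with V2523 at 4.88, 1.20 to 2.47 TPM with TYA-018 and 0.939 to 2.38 TPM with empagliflozin. Its log2 change in HFpEF+Veh was -0.12 with V2523 and -0.41 without (SE 0.16, edgeR adjusted p = 0.154), and with TYA-018 and empagliflozin it was -0.21 and -0.22, none of them called. Without the 4 libraries rich in hepatocyte transcripts it was smaller with both drugs, at -0.069 and -0.078, and -0.26 with vehicle, none of them called.

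Library V2523 had the highest level of all 7 detected genes among the 8 vehicle libraries. It exceeded the median of the other 7 by 5.74-fold for Sqle, 4.21-fold for Idi1, 3.01-fold for Cyp51, 1.96-fold for Insig1, 1.93-fold for Hmgcs1, 1.54-fold for Lss and 1.36-fold for Srebf2. Among 13 other enzymes of the pathway it was highest for 8, with a median ratio of 1.51 and a ratio of 5.69 for Acat2. It also led for the fatty acid elongase Elovl6 at 5.58. The ratio was 0.99 for the median of 8 genes of the oxysterol receptor LXR and cholesterol efflux, and 471 for the median of the 12 hepatocyte genes. The part of liver transcripts in the high sterol genes of V2523 was not tested. In HFpEF+TYA-018, V2543 was the highest library for Srebf2, Hmgcs1, Idi1, Sqle and Cyp51, and its hepatocyte sum of 5.47 CPM, the highest of that group, was below that of every non_failing library.

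**Figure D3:**
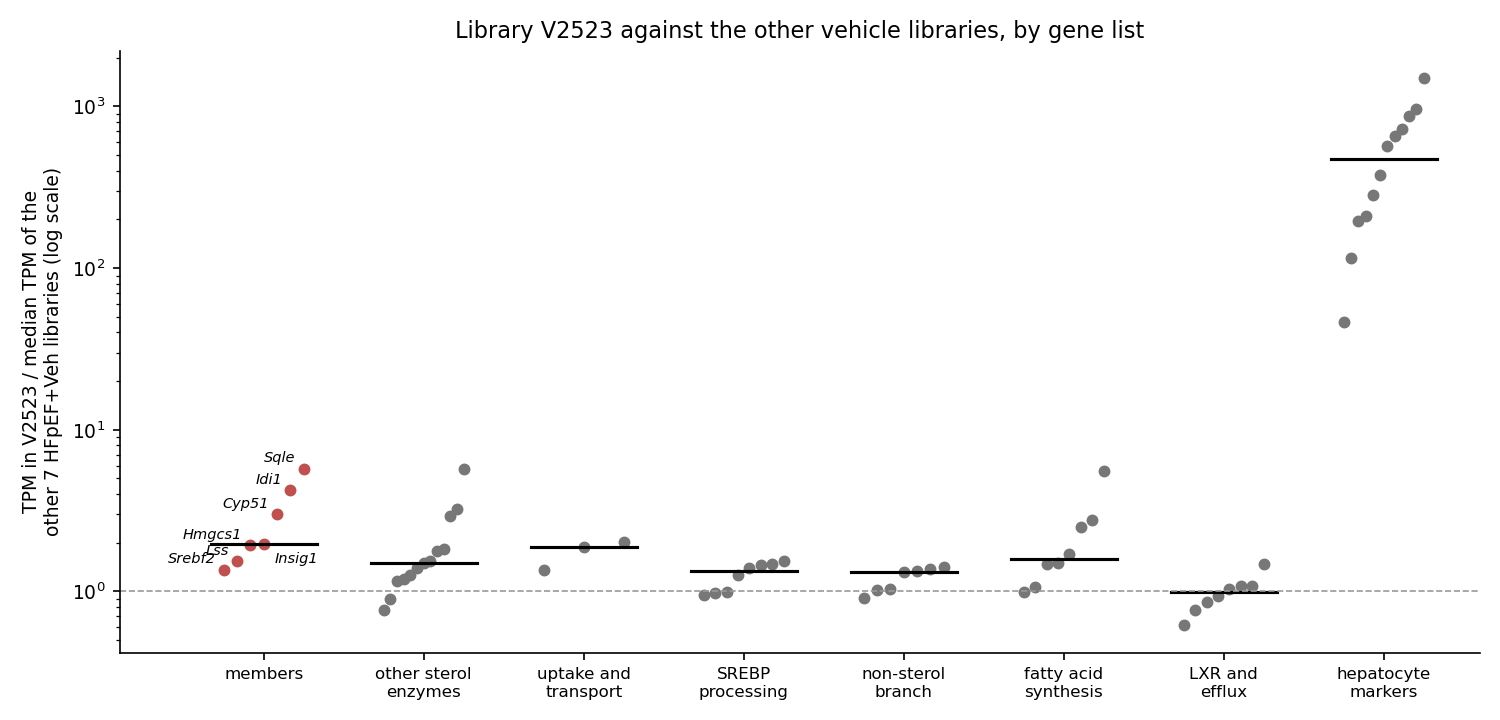
Ratio of TPM in V2523 to the median TPM of the other 7 HFpEF+Veh libraries for each gene, by gene list, on a log scale. Hepatocyte genes lie between 46.6 and 1497, and the 7 sterol synthesis genes between 1.36 and 5.74.

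Comparisons among the HFpEF groups asked whether either compound changed these genes. With edgeR, 0 of 7 were called for TYA-018 against vehicle (3 at an unadjusted p under 0.05, namely Srebf2, Sqle and Insig1, against 17.5% of all genes), where 1.93% of all genes were called, or 1.42% without V2523. The count was 0 of 7 for empagliflozin against vehicle (1 at an unadjusted p under 0.05, Sqle, against 10.05% of all genes), against 0.85% of all genes (117 genes, 99 of them lower, against 2 genes, 0.0145%, without V2523), and 0 of 7 for TYA-018 against empagliflozin (0 at an unadjusted p under 0.05), against 0% of all genes. Without V2523 these unadjusted p were 0.0876 for Srebf2, 0.769 for Sqle and 0.0755 for Insig1 with TYA-018, and 0.848 for Sqle with empagliflozin (edgeR). DESeq2 and limma on log2(TPM + 1) also called 0 of 7 in each. With all libraries the 7 log2 changes of TYA-018 against vehicle were all negative, from -0.71 for Sqle to -0.03 for Hmgcs1, with a median of -0.18, where the median of all genes was -0.01. Without V2523, Sqle stood at -0.07, Idi1 at 0.0013, Hmgcs1 at 0.11 and Cyp51 at 0.20, so that 4 of the 7 remained negative.

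For TYA-018 against empagliflozin the 95% intervals show what these numbers of mice could resolve. The log2 difference was 0.08 for Hmgcs1 (95% interval -0.28 to 0.45), 0.02 for Idi1 (-0.42 to 0.45), -0.03 for Sqle (-0.59 to 0.54), -0.12 for Lss (-0.39 to 0.15) and 0.01 for Cyp51 (-0.33 to 0.35). Both compounds were compared with the same 8 vehicle and 8 non_failing libraries, so their changes against those groups are not independent of each other.

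Among 13 other enzymes of cholesterol synthesis, from Acat2 and Mvk to Sc5d and Dhcr7, edgeR called 0 in each of the 6 comparisons, where 0% to 7.39% of all genes were called. In each comparison 1 or 2 of them had an unadjusted p under 0.05, as did 10.05% to 21.97% of all genes. Their median log2 change against non_failing was -0.05 with vehicle, -0.0085 with TYA-018 and -0.12 with empagliflozin. Without V2523 it was -0.17 with vehicle, where 9 of the 13 were lower, and Sc5d was called lower with TYA-018 at -0.41 (edgeR adjusted p = 0.0242) and Msmo1 with empagliflozin at -0.27 (edgeR adjusted p = 0.0240), both enzymes of late steps. Mvd, the mevalonate diphosphate decarboxylase, was then higher with TYA-018 than with vehicle, at 0.50 (edgeR adjusted p = 0.0347). Without V2523, 3.85% of all genes were called lower than non_failing with TYA-018 and 3.39% with empagliflozin. Between TYA-018 and vehicle 1.42% were called.

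**Figure D4:**
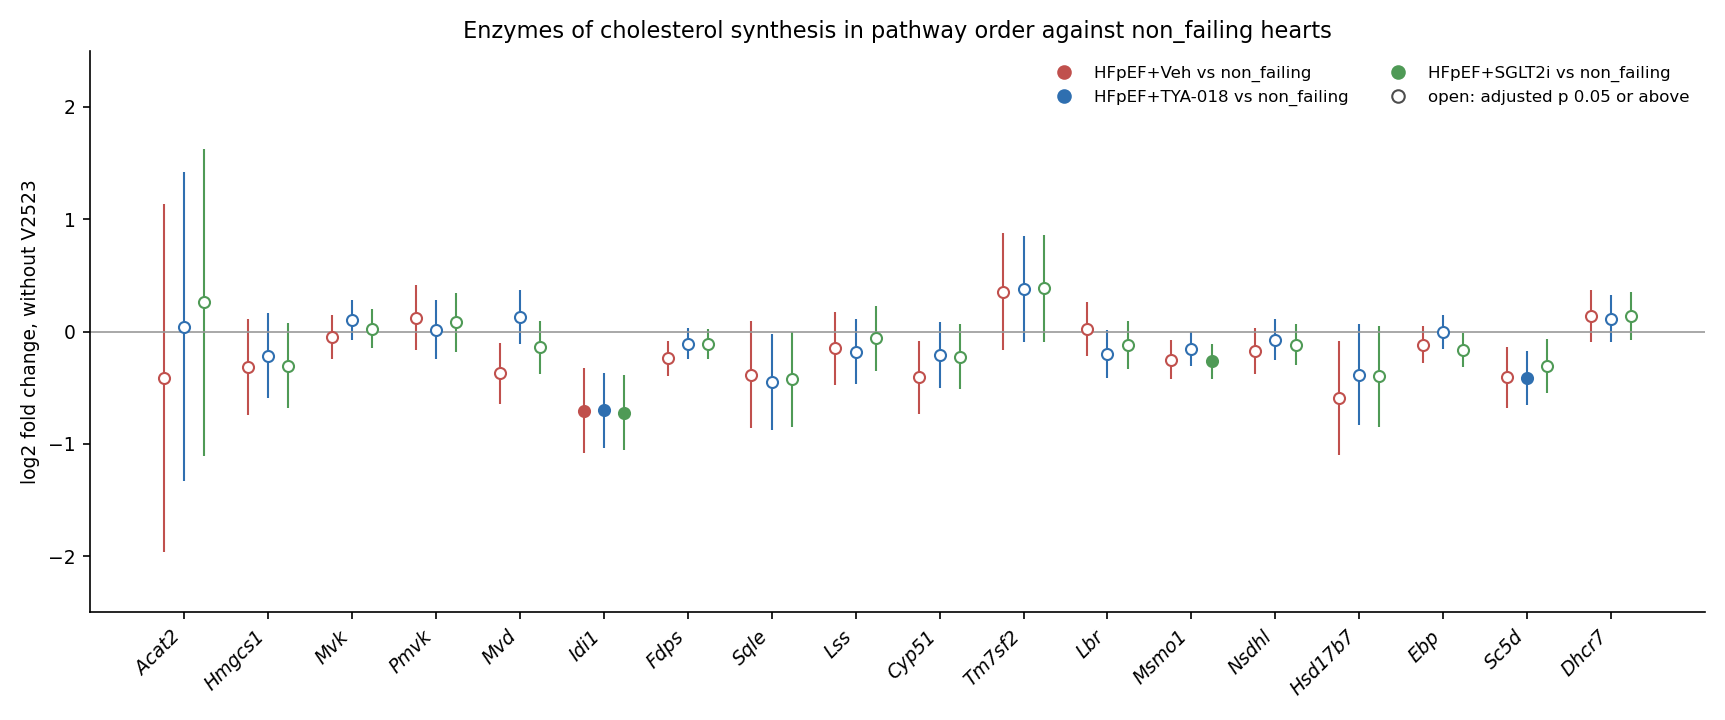
Log2 fold change against non_failing, without V2523, of 18 enzymes of cholesterol synthesis in pathway order, with 95% intervals and filled points for adjusted p under 0.05. Idi1 is filled in all 3 HFpEF groups at -0.70 to -0.72, Sc5d is filled with TYA-018 at -0.41 and Msmo1 with empagliflozin at -0.27, and with vehicle 9 of the 13 enzymes outside the list lie below 0.

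Of 8 genes that process SREBP proteins, Scap, the escort protein, was called higher with empagliflozin against non_failing, at 0.18 (edgeR adjusted p = 0.0184), where 3.46% of all genes were called higher. Srebf1, which makes SREBP1, was called nowhere. Of 3 further SREBP2 targets in uptake and transport, Stard4, a sterol carrier, was called lower with TYA-018 against vehicle at -0.48 (edgeR adjusted p = 0.0486), where 1.93% of all genes were called. Its change became -0.34 without V2523 (edgeR adjusted p = 0.119). Against non_failing, Stard4 was called lower with TYA-018 only without V2523, at -0.39 (edgeR adjusted p = 0.0301), where 3.85% of all genes were called lower. Tmem97 was called lower with empagliflozin against non_failing at -0.52 (edgeR adjusted p = 0.0343), where 2.99% of all genes were. It stood at -0.47 without the 4 libraries rich in hepatocyte transcripts (edgeR adjusted p = 0.0917).

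The genes of LXR, the receptor that senses oxysterols and favours cholesterol export, were called only in the higher direction against non_failing. Nr1h3, which encodes LXR alpha, was higher with TYA-018 at 0.42 (edgeR adjusted p = 0.00739) and with empagliflozin at 0.37 (edgeR adjusted p = 0.0216). Lpcat3, an LXR target that remodels phospholipids, was higher at 0.41 (edgeR adjusted p = 0.00739) and 0.55 (edgeR adjusted p = 0.000346), and Mylip, a ubiquitin ligase that is an LXR target, was higher with empagliflozin at 0.51 (edgeR adjusted p = 0.0450). That made 2 and 3 of 8 genes called higher, with a median of 0.24 in both, and 0 lower, where 4% and 3.46% of all genes were called higher. With vehicle 0 of the 8 were called by edgeR (2 at an unadjusted p under 0.05), against 1.77% of all genes called higher, with a median of 0.13. Without the 4 libraries Lpcat3 stood at 0.56 and 0.70, both called, Nr1h3 was called only with TYA-018, and Mylip was not called (edgeR adjusted p = 0.225).

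Of the branch that makes isoprenoids other than sterols, Ggps1, the geranylgeranyl diphosphate synthase, was lower in both drug groups against non_failing, at -0.19 with TYA-018 (edgeR adjusted p = 0.0227) and -0.19 with empagliflozin (edgeR adjusted p = 0.0289). Fntb, a farnesyltransferase subunit, was higher with TYA-018 against vehicle at 0.31 (edgeR adjusted p = 0.0410), and about as large without V2523 at 0.32, where it was not called (edgeR adjusted p = 0.0505). Dhdds, a subunit of the enzyme that makes the dolichol chain, stood at 0.20 with vehicle against non_failing (edgeR adjusted p = 0.0795) and was called higher without V2523 at 0.23 (edgeR adjusted p = 0.0430). Of 8 genes of fatty acid synthesis, Scd1, the stearoyl-CoA desaturase, had the largest change. Its level was 3.86 to 9.29 TPM in non_failing, 1.98 to 7.52 TPM in HFpEF+Veh, 1.63 to 2.90 TPM with TYA-018 and 1.90 to 2.93 TPM with empagliflozin, so that both drug groups lay wholly below non_failing. The log2 change of Scd1 was -1.21 with TYA-018 (edgeR adjusted p = 8.23e-06), -1.18 with empagliflozin (edgeR adjusted p = 1.14e-05) and -0.68 with vehicle (edgeR adjusted p = 0.0323). Without the 4 libraries it was smaller, at -0.87, -0.84 and -0.54, and the last was not called (edgeR adjusted p = 0.0725). Me1, the malic enzyme, was higher with empagliflozin at 0.61 (edgeR adjusted p = 0.0230). Against non_failing, 1.38% of all genes were called lower with vehicle, 3.39% with TYA-018 and 2.99% with empagliflozin, and 3.46% higher with empagliflozin. For TYA-018 against vehicle the share called was 1.93%.

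Cell type markers moved in part with these comparisons. Of 8 cardiomyocyte genes, 4 (Myl2, Myl3, Tnnt2 and Tnni3) were called lower in HFpEF+Veh against non_failing, the same 4 with empagliflozin and 1 (Myl3) with TYA-018, where 1.38%, 2.99% and 3.39% of all genes were called lower. Of 6 fibroblast genes, Lum (0.86) and Pdgfra (0.33) were called higher with vehicle, Lum (0.54) with TYA-018 and Pdgfra (0.35) with empagliflozin, and Tcf21 was called lower with empagliflozin (-0.43). Among all genes, 1.77% were called higher with vehicle, 4% with TYA-018 and 3.46% with empagliflozin. The other fibroblast genes were not called, and the median log2 change of the 6 was 0.31, 0.09 and 0.14 in these comparisons. Of 6 genes of smooth muscle and pericytes, Rgs5 was called lower with vehicle (-0.36) and TYA-018 (-0.33), and Acta2 higher with TYA-018 (0.67). Of the 6, 4 lay above the non_failing group with vehicle (median 0.05) and 5 with TYA-018 (median 0.03). Of 6 endothelial genes, Fabp4 was called higher with TYA-018 (0.57), while the other 5 lay lower there and were not called (median of the 6 -0.10). With vehicle and with empagliflozin 0 endothelial genes were called by edgeR, 1 had an unadjusted p under 0.05 in each, and 5 of the 6 lay higher. Of 4 atrial genes tested, Bmp10, at 1.11 CPM or below in every library, was called higher in all 3 HFpEF groups (2.38, 2.69 and 3.39). The others were not called, and the values of Myl7 went the other way (-2.46 with vehicle, -1.001 with TYA-018 and -1.47 with empagliflozin), so that 2 of the 4 lay higher and 2 lower in each comparison. All 5 macrophage genes tested lay higher in each HFpEF group (median 0.26, 0.20 and 0.20), where edgeR called 0, and 1, 0 and 0 had an unadjusted p under 0.05. Without the 4 libraries rich in hepatocyte transcripts, 4, 3 and 3 of these 5 lay higher and 0 were called. Of 8 adipocyte genes only Cidea had enough counts to be tested, and it was called higher in all 3 HFpEF groups (0.69 with vehicle, 0.96 with TYA-018 and 0.90 with empagliflozin), while Adipoq, Plin1, Cidec, Retn, Cfd, Lep and Ucp1 stood at or below 0.49 CPM in every library. Without V2523, Bmp10 was no longer called with vehicle, at 1.95 (edgeR adjusted p = 0.0644), and Acta2 was, at 0.77 (edgeR adjusted p = 0.0467). Without the 4 libraries rich in hepatocyte transcripts, Bmp10, Myl2, Tnnt2 and Tnni3 were not called with vehicle, nor Lum, Acta2 and Fabp4 with TYA-018, nor Tnnt2 and Tcf21 with empagliflozin, while Rgs5 was called lower with empagliflozin too. Of 15 clock genes, which follow the hour at which tissue is taken, edgeR called 0 with vehicle, 1 with TYA-018 (Nr1d1, at -0.76) and 1 with empagliflozin (Hlf, at -0.62) against non_failing. At an unadjusted p under 0.05 there were 2, 6 and 3 of the 15, against 15.9%, 21.97% and 19.6% of all genes. In each of these comparisons 13 of the 15 were lower, but 9 with vehicle without V2523, where their median log2 change moved from -0.13 to -0.02. Without the 4 libraries Nr1d1 was not called with TYA-018, and Cry2 and Hlf were called lower there. The part of these cell type and clock genes in the results above was not tested.

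The 7 detected genes were next compared from mouse to mouse inside the groups, to see whether they varied together. For this the group mean was subtracted from each gene's log2 CPM, and each of 21 pairs was tested by permutation inside groups over 38 libraries (100000 resamples, two-sided, Benjamini-Hochberg over 21 pairs). Pearson's r was positive for 18 of 21 pairs, with a median of 0.19 and a range from -0.37 to 0.71, and 7 pairs had an adjusted p under 0.05. Without V2523 it was positive for 11 of 21, with a median of 0.02. In HFpEF+Veh alone, the group that holds V2523, all 21 pairs were positive.

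Of the 4 positive pairs past the threshold without V2523, 3 included Cyp51. Idi1 and Cyp51 had r = 0.71 and Spearman's rho = 0.58 (permutation, adjusted p = 0.000840 for r and 0.00462 for rho), r = 0.51 without the 2 libraries farthest from the median of Idi1, and r = 0.52 without V2523 (permutation, adjusted p = 0.00413). Without V2523, Insig1 and Cyp51 had r = 0.51 and rho = 0.45 (permutation, adjusted p = 0.0151 for r), Hmgcs1 and Cyp51 had r = 0.50 and rho = 0.50 (permutation, adjusted p = 0.00413), and Hmgcs1 and Idi1 had r = 0.44 and rho = 0.47 (permutation, adjusted p = 0.0445). These 3 pairs had r of 0.50, 0.58 and 0.61 without the 2 of the 38 libraries farthest from the median. Srebf2 had r = 0.53 with Sqle (permutation, adjusted p = 0.00871) and 0.51 with Idi1 (permutation, adjusted p = 0.00941) over all 38 libraries. Its r without V2523 was 0.36 with Idi1, 0.38 with Sqle, 0.02 with Hmgcs1 and -0.07 with Cyp51, none of them past the threshold. Lss ran opposite to 3 of the other enzymes without V2523, with r = -0.55 to Idi1, -0.47 to Hmgcs1 and -0.43 to Cyp51 (permutation, adjusted p = 0.00413, 0.0316 and 0.0377). With all 38 libraries these pairs were at -0.27, -0.37 and -0.23 and did not pass (permutation, adjusted p = 0.195, 0.0819 and 0.291). The last was at -0.10 without the 2 farthest, and on the log2(TPM + 1) scale with all libraries these pairs were at 0.04, -0.11 and -0.07. The pairs share libraries, depth and normalization.

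**Figure D5:**
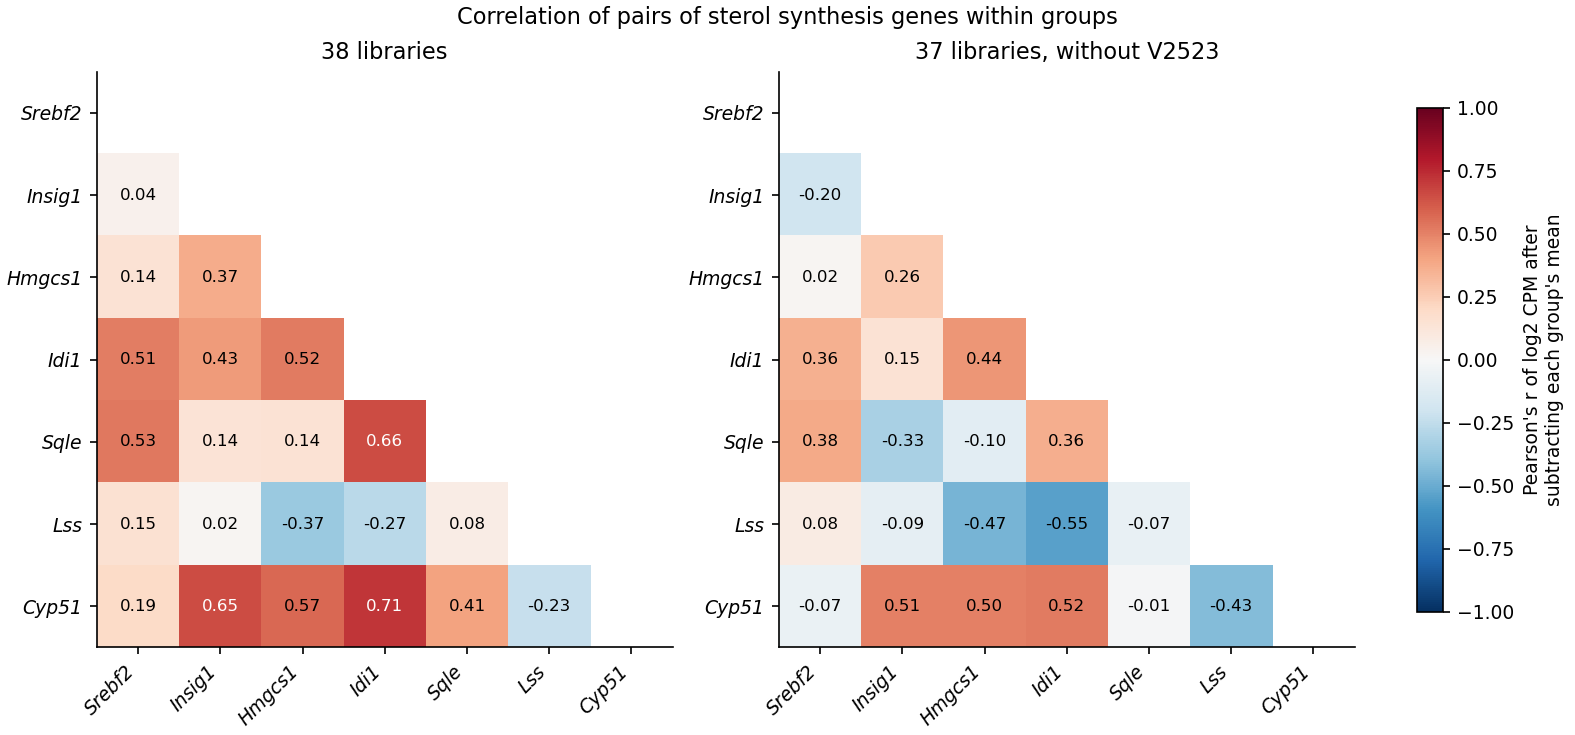
Pearson's r between each pair of the 7 genes after subtracting group means, with all 38 libraries and without V2523. The pairs of Cyp51 with Idi1, Insig1 and Hmgcs1 keep r of 0.50 to 0.52 without V2523, and the median pair drops from 0.19 to 0.02.

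Genes outside the list were ranked by how closely they followed the mean of the 7 genes across mice, over 10917 genes with a mean log2 CPM of at least 1. With all 38 libraries the closest were Mgat3 (r = 0.85), Msmo1 (0.78), Slc4a4 (0.78), Clu (0.76), Golm1 (0.76), Tmem8 (0.76), Spint2 (0.74), Trf (0.73), Sc5d (0.72) and Llgl2 (0.72). Without V2523 they were Hsd17b7 (0.67), a sterol enzyme, Lmcd1 (0.65), Mgat3 (0.65), Arl2bp (0.62), Cidea (0.61), Aars (0.61), Pofut2 (0.61), Gja1 (0.61), Prlr (0.61) and Rassf3 (0.61). Mgat3 was on both lists, while Msmo1 fell from rank 2 to rank 2622 and Sc5d from rank 9 to rank 224. These correlations are descriptions over the same libraries that the 7 genes come from.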

How the data were processed

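RNA from 38 left ventricles, 1 library per mouse, was sequenced from poly(A) libraries. The deposited expected counts and TPM values came from the authors' quantification with Salmon 1.6.0, which the methods place on a GENCODE mouse transcriptome (the submitters' processing notes name hg38), summarised per gene. Expected counts were rounded to whole numbers. The main test was edgeR 4.0.16 (R 4.3.3), with filterByExpr, TMM scaling, 1 quasi-likelihood model of 4 groups, 6 contrasts and Benjamini-Hochberg adjustment over 13765 genes. Genes with an adjusted p under 0.05 were called, and each SE was the fold change (log2) over the square root of its F statistic. The 95% intervals are that SE times the t quantile at the degrees of freedom of the test. TPM, deposited by the authors per 1000000 transcripts, served for levels and, as log2(TPM + 1), for limma 3.58.1 over genes detected in at least 90% of libraries. DESeq2 1.42.0, other scalings, no filter, a length offset, 2 groups alone and leaving out each library were alternatives. No pair of libraries of 1 group agreed within counting noise. P-values rest on the spread between mice.

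The members and gene lists were chosen with earlier results of these data known. All 8 members are described, and of the 6 pathway lists, genes called in at least 1 comparison are named. Leaving out hepatocyte-rich libraries together, and the letters TCACNCCA, were chosen after seeing the data. Genes named for a call without V2523, or for context (Srebf1), were chosen after their values were seen. Some genes of these lists are not reported here and are in no list count. Gene coordinates are from GENCODE on GRCm38. The test was tested on simulated data with known changes.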

Additional observations from a re-analysis of the deposited data

Results flagged for a closer look

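In the HFpEF+Veh group, library V2523 passed a rule for an outlying library in a group of 8 in 3 of the 7 gene levels examined. These were Sqle at 1.64 TPM, Idi1 at 6.44 TPM and Cyp51 at 4.88 TPM. The highest of the other 7 vehicle libraries had 0.464, 2.28 and 2.20 TPM. For a single level, chance gives such a library about 1 time in 20. This rate does not tell how often 3 of 7 would pass, because the levels come from the same libraries. In HFpEF+Veh all 21 pairs of these genes were positively correlated. V2523 was already set apart above by its hepatocyte transcripts, so its outlying levels are not a separate finding. In the non_failing group 0 of 7 gene levels held such a library. The rule was applied to the HFpEF+Veh and non_failing groups only. V2523 also had the highest hepatocyte sum of all libraries, 2313 CPM. The part of hepatocyte transcripts in these values was not tested.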

How the results depend on the processing

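The decrease of Srebf2 with TYA-018 and with empagliflozin against non_failing kept its direction and its call under each alternative run, with log2 changes from -0.52 to -0.41 and from -0.44 to -0.31. In HFpEF+Veh against non_failing, the number of genes called was 1 in the main test and 0 with library size alone, without the filter on low counts, with limma on log2(TPM + 1) and with 2 groups only, and 2 without V2523 and V2504. It was between 0 and 2 when 1 library was left out. With TYA-018 against vehicle it was 2 instead of 0 with library size alone, a scaling that moved the median of all genes by -0.13 and made 25 of 1096 calls higher ones, against 115 of 266 in the main test. Against non_failing, 2 instead of 1 were called with TYA-018 (library size alone, DESeq2, 2 groups only, and without V2523 and V2504) and with empagliflozin (DESeq2 size factors, DESeq2, 2 groups only, and without V2523 and V2504), and between 1 and 2 when 1 library was left out. For the alternatives in brackets, the share of all genes called is not given here. These counts therefore do not set the members apart from other genes. The added call was Idi1 each time. It was gained with TYA-018 without V2502, V2510, V2523, V2527, V2528, V2530, V2543 or V2547, and with empagliflozin without V2502, V2510, V2523, V2527, V2528, V2530, V2543, V2550, V2555 or V2562.

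Signs turned only for changes that were not called. Without V2523 and V2504, the log2 change was -0.44 for Sqle in HFpEF+Veh against non_failing, 0.20, 0.11 and 0.0014 for Cyp51, Hmgcs1 and Idi1 with TYA-018 against vehicle, 0.18, 0.016 and 0.014 for Cyp51, Hmgcs1 and Insig1 with empagliflozin against vehicle, and 0.0053 for Insig1 with TYA-018 against non_failing. Without the 4 libraries rich in hepatocyte transcripts it was -0.50 for that change of Sqle, 0.20 and 0.10 for Cyp51 and Hmgcs1 with TYA-018 against vehicle, 0.19, 0.019 and 0.015 for Cyp51, Hmgcs1 and Insig1 with empagliflozin against vehicle, and 0.10 for Insig1 with TYA-018 against non_failing. The length offset gave 0.011 for Hmgcs1 and 0.0085 for Lss with TYA-018 against vehicle and 0.0097 for Sqle with TYA-018 against empagliflozin. Library size alone gave -0.035 for Lss with empagliflozin against vehicle, and -0.041 for Cyp51 and -0.030 for Idi1 with TYA-018 against empagliflozin, and limma gave -0.013 for Hmgcs1 and -0.0053 for Idi1 there.

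When 1 library was left out, signs turned for Sqle in HFpEF+Veh against non_failing (-0.38 to 0.37), for Cyp51 (-0.16 to 0.20), Hmgcs1 (-0.16 to 0.11) and Idi1 (-0.57 to 0.0013) with TYA-018 against vehicle, for Cyp51 (-0.17 to 0.18), Hmgcs1 (-0.24 to 0.016), Insig1 (-0.17 to 0.014) and Lss (-0.014 to 0.11) with empagliflozin against vehicle, for Cyp51 (-0.055 to 0.054), Idi1 (-0.10 to 0.076) and Sqle (-0.16 to 0.073) with TYA-018 against empagliflozin, for Insig1 with TYA-018 (-0.11 to 0.0055) and for Lss with empagliflozin (-0.12 to 0.011) against non_failing. The cause of these changes was not tested. No paired analysis was possible because the mouse numbers differ in every group. Sqle, at 10 to 162 counts in a library, had the widest intervals.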
